A study of Mus musculus with 112 samples.

Results

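The genes described are Serpina3n and 8 further genes that astrocytes switch on when they become reactive, namely Gfap, Vim, C4b, Lcn2, S1pr3, Osmr, Cd44 and Steap4. They were chosen by their place in reactive astrocyte lists together with earlier values of these same arrays, above all the levels of Serpina3n by strain in control and calorie restricted mice, so their differences between strains are given as a description. Calls between strains are counted only beside the share of all genes called, and nothing is read from them for these 9 genes. Each of the 9 had exactly 1 probe set annotated to a single gene symbol, out of 19938 genes measured that way. The levels are log2 RMA signals, in which a difference of 1 is a 2-fold change, and the level of one gene cannot be set against that of another because every probe set has its own response. By rank of signal alone, C4b, Lcn2, Osmr, Cd44 and Steap4 lay below the median gene, Lcn2 and Steap4 at the 20.9th and 23.8th percentiles. How far background signal limits the differences of such genes was not tested.

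RNA of the cerebral cortex came from 112 male mice, 1 array each. Of the 7 strains, 6 were inbred, namely DBA/2J, CBA/J, Balbc/J, 129S1/SvImJ, C3H/HeJ and C57BL6/J, and B6C3F1/J is the cross of the last 2. Each strain gave 8 mice kept on the control diet and 8 on calorie restriction (CR). On arrival the mice were 6 weeks old, and each lived alone on 84 kcal a week of a purified diet until CR began in the restricted groups at 8 weeks. Tissue was taken at 22 weeks after a night without food. The food allowance was not the same for all strains: Balbc/J mice on both diets received more than several other strains, and the CR allowance of 129S1/SvImJ and C57BL6/J was lowered again during the study.

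Astrocytes are the star-shaped support cells of the brain. After injury, infection or inflammation they become reactive, enlarging their skeleton of intermediate filaments (Gfap, Vim) and raising secreted proteins (Serpina3n, C4b, Lcn2) and receptors (Osmr, S1pr3, Cd44). Cytokines that act through the shared receptor subunit gp130, the kinase JAK and the transcription factor STAT3 are a well known route to this state. In whole cortex, fewer cells of a type and less RNA per cell cannot be told apart.

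The probes measured cortex in nearly every array. The mean of 7 genes of excitatory cortical neurons lay between 10.06 and 10.43 in all 14 groups. A pair of arrays went against the tissue label, however. In the array labelled C57BL6/J control 6 the mean of 12 genes of the cerebellum differed from the other 7 arrays of its group by 4.40 and that of the cortical neuron genes by -2.77. In the array labelled B6C3F1/J control 8 the corresponding differences were 4.34 and -2.42. DBA/2J control 8 and CBA/J CR 6 were higher in cerebellar genes by 1.62 and 1.31. Results that rest on these 4 arrays are given with and without them.

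Serpina3n, a secreted inhibitor of serine proteases of the acute phase, fell into 3 levels that followed strain and not diet. The highest level was that of 129S1/SvImJ. Balbc/J, CBA/J and DBA/2J formed the middle level, and C57BL6/J, C3H/HeJ and B6C3F1/J the low one. All 16 arrays of 129S1/SvImJ lay at or above 11.05 and the other 96 at or below 10.21, and the means differed by 2.18, which is 4.52-fold. The 48 arrays of the middle level began at 9.19 and the 48 of the low level ended at 9.09, with a 2.26-fold difference of means. The groups on either side of each step therefore did not overlap in any mouse.

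The reference sequence just before the start of Serpina3n is shown because this gene has the largest difference between strains of the 9. It comes from the RefSeq promoter table of build GRCm38.p6, chr12:104406458-104406655 on the plus strand, which ends 10 bases past the outermost annotated start of the gene. It is the sequence of the reference genome and not of the 7 strains.
Serpina3n: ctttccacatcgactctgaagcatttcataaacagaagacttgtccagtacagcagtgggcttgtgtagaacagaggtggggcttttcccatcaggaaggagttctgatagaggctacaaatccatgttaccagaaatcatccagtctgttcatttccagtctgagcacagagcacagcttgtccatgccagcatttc
STAT proteins commonly recognise TTCNNNGAA, which reads the same on both strands, and these letters were not in the window.

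In 129S1/SvImJ the lowest, median and highest Serpina3n signals were 11.05, 11.26 and 11.52 in control mice and 11.09, 11.33 and 11.49 in CR mice. In DBA/2J they were 9.37, 9.78 and 10.17 in control mice and 9.37, 9.84 and 10.21 in CR mice. CBA/J ran from 9.45 over a median of 9.59 to 10.03 in control mice and from 9.41 over 9.83 to 9.98 in CR mice. These strains and Balbc/J overlapped nearly completely below 129S1/SvImJ. Balbc/J gave 9.19, 9.63 and 9.91 in control mice and 9.38, 9.65 and 9.92 in CR mice. In C57BL6/J the values were 7.39, 8.70 and 8.81 in control mice and 8.49, 8.72 and 9.09 in CR mice, and the 7.39 belongs to the array high in cerebellar genes, without which the lowest was 8.52. C3H/HeJ gave 8.24, 8.49 and 8.66 in control mice and 8.03, 8.64 and 8.74 in CR mice. The hybrid overlapped both of its parental strains. B6C3F1/J gave 7.62, 8.39 and 8.71 in control mice, where 7.62 is the other array high in cerebellar genes and the next lowest was 8.21, and 8.27, 8.51 and 8.83 in CR mice.

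**Figure D1:**
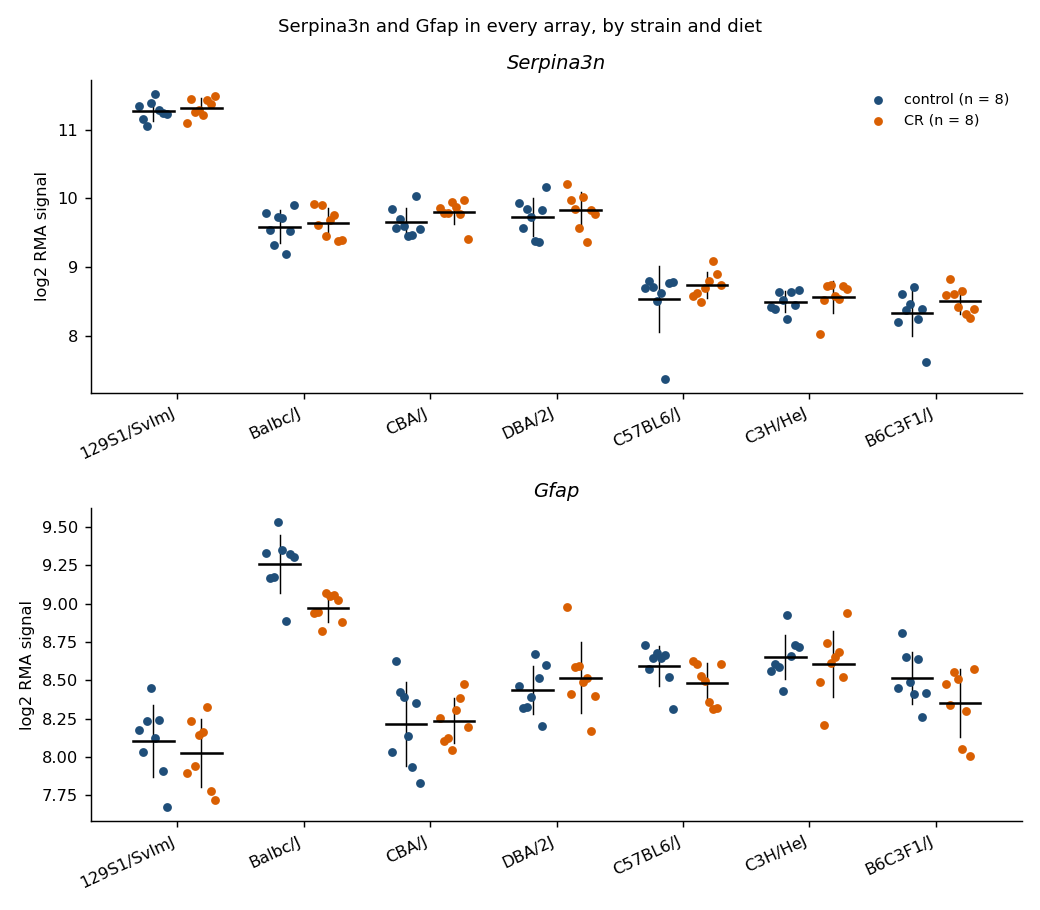
The y axis gives the log2 RMA signal of Serpina3n (top) and Gfap (bottom) in each of the 112 arrays, with the 7 strains along the x axis, control mice in blue and CR mice in orange (n = 8 each), horizontal bars at group means and vertical lines of 1 SD. Serpina3n separates into 3 levels with 129S1/SvImJ at or above 11.05, while Gfap is highest in Balbc/J and lowest in 129S1/SvImJ.

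In order of the means, the steps of Serpina3n among control mice were 1.55 ± 0.12 (SE) from 129S1/SvImJ to DBA/2J and 1.05 ± 0.12 from Balbc/J to C57BL6/J. The other 4 neighbours in that order, DBA/2J and CBA/J, CBA/J and Balbc/J, C57BL6/J and C3H/HeJ, and C3H/HeJ and B6C3F1/J, were apart by 0.04 to 0.17 with the same SE and did not differ beyond their spread. These steps include the arrays high in cerebellar genes. Without them the control mean of C57BL6/J was 8.70 instead of 8.54, nearer to Balbc/J (9.59) and farther from C3H/HeJ (8.50). Those of B6C3F1/J and DBA/2J were then 8.43 instead of 8.33 and 9.67 instead of 9.73, and the order was kept. Among CR mice the order of the 7 strains was the same (Spearman rho = 1, Pearson r = 0.999 over the 7 strain means), with steps of 1.49 and 0.90 at the same places, and since the choice of genes used both diets this is no independent repeat. Strain accounted for 93.9% of the sum of squares of Serpina3n, diet for 0.342% and mice within groups for 5.66%. For the median gene these shares were 23.6%, 0.472% and 70.7%. The distance between the highest and the lowest strain mean, 2.94 in control mice and 2.81 in CR mice, stood at the 99.98th percentile of all genes in both diets.

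Gfap, the intermediate filament protein by which astrocytes are recognised, followed another order. It was highest in Balbc/J and lowest in 129S1/SvImJ, the strain with the highest Serpina3n signal. The means of these strains were 1.15 apart in control mice and 0.95 apart in CR mice, and over both diets Balbc/J was 2.07-fold higher, with its 16 arrays at or above 8.82 and those of 129S1/SvImJ at or below 8.45. Over the 14 group means the Pearson r of Gfap and Serpina3n was -0.423, which describes 7 strains each counted in both diets.

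The window before the start of Gfap is shown because it is 1 of 2 member windows that hold TTCNNNGAA, here in capitals. It lies at chr11:102897191-102897450 of GRCm38.p6 on the minus strand.
Gfap: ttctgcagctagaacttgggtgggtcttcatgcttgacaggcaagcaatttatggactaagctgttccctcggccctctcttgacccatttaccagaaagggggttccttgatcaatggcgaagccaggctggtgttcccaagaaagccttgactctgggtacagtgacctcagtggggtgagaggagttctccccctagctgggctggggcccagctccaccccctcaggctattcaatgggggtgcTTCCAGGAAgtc
The match begins 2 bases before the annotated start and runs across it. Of 32851 promoter windows in the table, 8.30% hold these letters, and 2 of the 8 members with a window, Gfap and Steap4, are among them. TATAAA, searched on both strands, is in 13.6% of all windows and in those of Steap4 and Vim. C4b has no window in the table.

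In Balbc/J the lowest, median and highest Gfap signals were 8.89, 9.31 and 9.53 in control mice and 8.82, 8.98 and 9.07 in CR mice. In 129S1/SvImJ they were 7.68, 8.15 and 8.45 in control mice and 7.72, 8.04 and 8.33 in CR mice. The lowest control value of Balbc/J thus exceeded the highest of 129S1/SvImJ. CBA/J was the next lowest, with 7.83, 8.24 and 8.63 in control mice and 8.05, 8.22 and 8.47 in CR mice. DBA/2J gave 8.20, 8.43 and 8.67 in control mice and 8.17, 8.50 and 8.98 in CR mice. The remaining strains lay between CBA/J and Balbc/J and overlapped one another. C57BL6/J gave 8.31, 8.64 and 8.73 in control mice and 8.31, 8.51 and 8.63 in CR mice. C3H/HeJ gave 8.43, 8.63 and 8.93 in control mice and 8.21, 8.63 and 8.94 in CR mice. B6C3F1/J gave 8.26, 8.47 and 8.81 in control mice and 8.01, 8.41 and 8.58 in CR mice. Unlike Serpina3n, the middle of the Gfap range held no gap.

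Balbc/J stood 0.61 ± 0.09 (SE) above C3H/HeJ, its nearest neighbour in control mice, and 0.37 ± 0.09 above it in CR mice. No other neighbours in the order of Gfap means differed beyond their spread in either diet. Strain accounted for 72.4% of the sum of squares of Gfap, diet for 1.34% and mice within groups for 23.9%, and the order of strains was close in the 2 diets (Spearman rho = 0.893).

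Vim encodes vimentin, the other filament protein that astrocytes raise. It was lowest in 129S1/SvImJ in both diets, at 9.78 ± 0.22 (SD, n = 8) in control and 9.95 ± 0.14 in CR mice, and highest in Balbc/J, at 10.28 ± 0.22 and 10.26 ± 0.11. Every other group mean was at or below 10.25 and above both means of 129S1/SvImJ. The C57BL6/J and B6C3F1/J control groups each held one of the arrays high in cerebellar genes, with Vim at 11.63 and 11.54, and their SDs were 0.57 in both. Without those arrays their means were 10.04 ± 0.08 and 10.03 ± 0.22 (n = 7) instead of 10.24 and 10.22. The distance between 129S1/SvImJ and Balbc/J did not involve them.

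Among the receptors, Osmr, the subunit that binds oncostatin M together with gp130, was highest in Balbc/J in both diets. Its strain means among control mice ran from 7.02 ± 0.13 (SD, n = 8) in DBA/2J to 7.45 ± 0.11 in Balbc/J, and among CR mice from 6.94 ± 0.15 in 129S1/SvImJ to 7.34 ± 0.12 in Balbc/J. In control mice Balbc/J lay 0.22 ± 0.07 (SE) above C3H/HeJ, the next strain, and in CR mice by 0.05 ± 0.07, within the spread, while in CR mice C3H/HeJ lay 0.20 ± 0.07 above B6C3F1/J, the next in order. The C3H/HeJ CR group held 1 array at 7.86, above every other array of the 112, and without it the step from C3H/HeJ to B6C3F1/J was 0.12 ± 0.06, within the spread. Without the array C57BL6/J control 6 the C57BL6/J control mean was 7.27 instead of 7.21, above the 7.23 of C3H/HeJ.

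Cd44, the receptor for the matrix polysaccharide hyaluronan, was highest in C3H/HeJ in control mice (6.88 ± 0.13, SD, n = 8) and in CR mice (6.88 ± 0.12). It was lowest in C57BL6/J, at 6.52 ± 0.18 and 6.48 ± 0.11. The hybrid of these strains lay between them in both diets, at 6.79 ± 0.16 and 6.67 ± 0.09. The C57BL6/J and B6C3F1/J control groups held the arrays highest in cerebellar genes, with Cd44 at 6.92 and 7.02. Without those arrays their means were 6.47 ± 0.08 and 6.75 ± 0.13 (n = 7). 129S1/SvImJ was near the top, at 6.81 in both diets. No neighbours in the order of Cd44 means differed beyond their spread. The largest step among control mice was 0.13 ± 0.07 (SE), from B6C3F1/J to Balbc/J.

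S1pr3, a G protein coupled receptor for sphingosine 1-phosphate, had nearly the same level in all strains. The 7 control means lay within 0.11 and the 7 CR means within 0.15, at the 2.36th and 14.8th percentiles of the ranges of all genes. Its lowest value, 7.23, was in the array C57BL6/J control 6, and the next lowest array of that group stood at 8.01. Without that array the C57BL6/J control mean was 8.21 ± 0.13 (SD, n = 7) instead of 8.09, the highest of the control means. Without the array B6C3F1/J control 8 the mean of its group was 8.11 ± 0.14 (n = 7) instead of 8.04.

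Of the secreted proteins, C4b, complement component 4, had strain ranges of 0.18 in control mice and 0.22 in CR mice, at the 20.28th and 45.04th percentiles of all genes. Its means ran from 7.40 ± 0.17 (SD, n = 8) in C57BL6/J to 7.58 ± 0.16 in DBA/2J among control mice, and from 7.44 ± 0.27 in B6C3F1/J to 7.67 ± 0.20 in C3H/HeJ among CR mice. C4b has a near-identical copy, C4a, which has its own probe set, and how far each probe set separates the copies was not tested. The same holds for Serpina3n and its neighbours in the Serpina3 cluster.

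Lcn2, the secreted protein lipocalin 2 that takes up iron carriers of bacteria, varied more between mice of one group (83.6% of its sum of squares) than between strains (8.77%). The 7 control means ran from 5.85 ± 0.20 (SD, n = 8) in C57BL6/J to 6.25 ± 0.18 in 129S1/SvImJ. Single arrays stood far above their groups in C3H/HeJ CR 4 at 8.03, DBA/2J CR 6 at 7.07, CBA/J CR 3 at 7.05 and Balbc/J control 4 at 6.68. In C3H/HeJ CR the other 7 arrays lay between 5.87 and 6.32. The array at 8.03 was also the one with the highest Osmr, and its mean of 6 neutrophil and blood genes was 0.0445 below the other arrays of its group. In DBA/2J CR 6 and CBA/J CR 3 these genes were 0.0751 and 0.265 higher than in their groups. The mean signal of the neutrophil and blood genes was low throughout, between 5.94 and 6.14 in the 14 groups.

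Steap4, a membrane enzyme that reduces iron and copper, spanned 0.21 between strain means in control mice and 0.28 in CR mice, with 129S1/SvImJ highest at 6.38 ± 0.08 (SD, n = 8) and 6.37 ± 0.14. Its window is shown as the second with the STAT-type letters, at chr5:7960222-7960481 of GRCm38.p6 on the plus strand, with the match in capitals 116 bases before the annotated start.
Steap4: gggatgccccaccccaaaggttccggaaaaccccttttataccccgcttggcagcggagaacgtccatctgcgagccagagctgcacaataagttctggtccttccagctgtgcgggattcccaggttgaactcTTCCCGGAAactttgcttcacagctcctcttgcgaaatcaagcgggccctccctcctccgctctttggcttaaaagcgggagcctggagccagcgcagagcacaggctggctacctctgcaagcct
These are reference sequences, and strain differences in them were not examined.

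**Figure D2:**
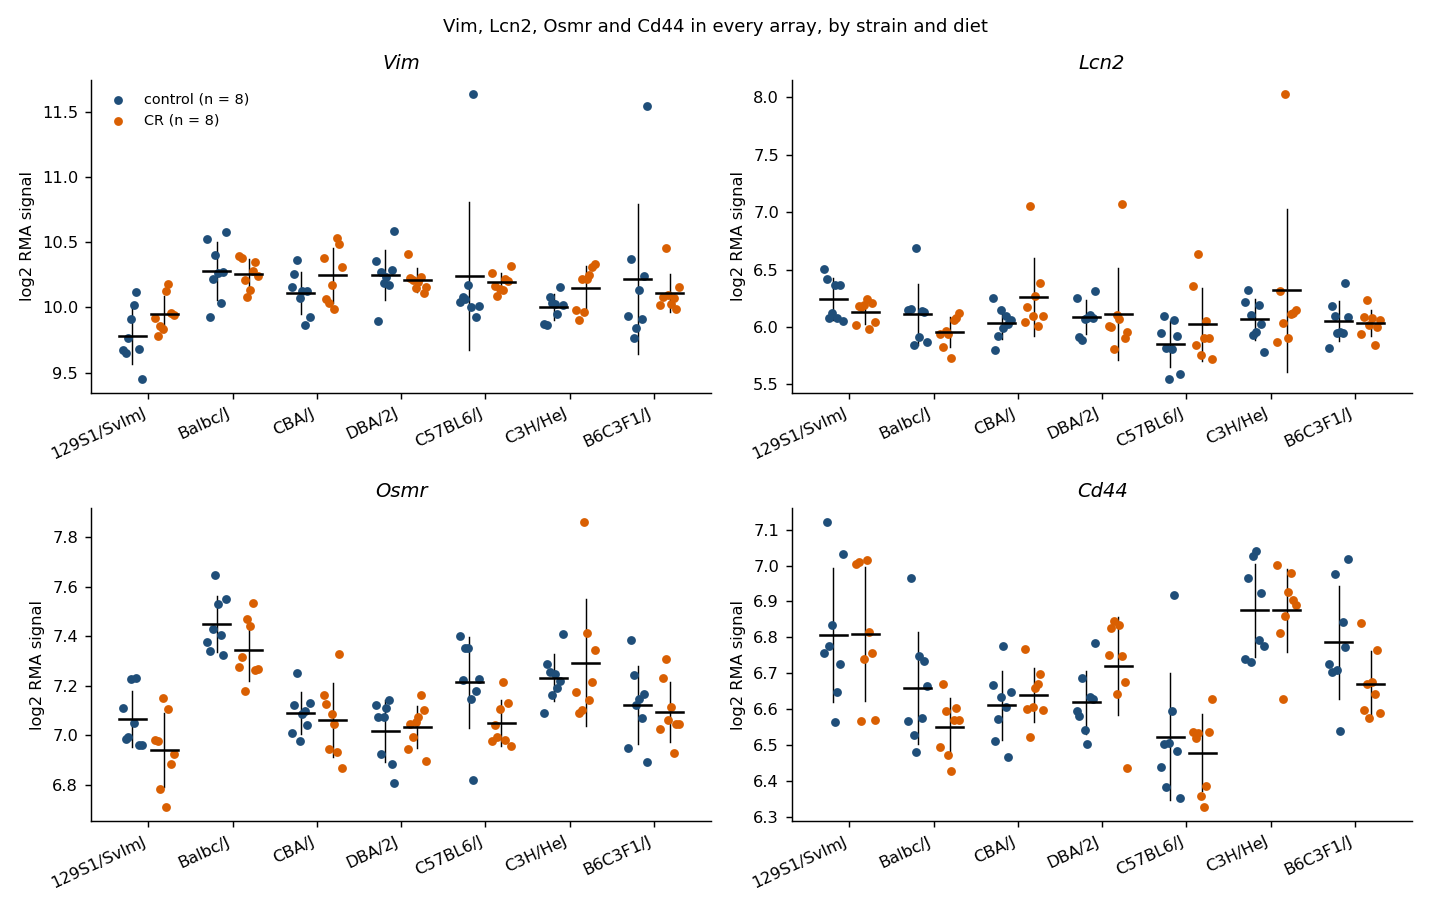
The y axes give the log2 RMA signal of Vim, Lcn2, Osmr and Cd44 in each of the 112 arrays, by strain along the x axis, with control mice in blue and CR mice in orange (n = 8 each), bars at group means and lines of 1 SD. Vim has 2 control arrays above 11.5 and Lcn2 has single high arrays, the highest at 8.03, while Osmr and Cd44 shift by strain as whole groups.

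A gene was called where limma's moderated F over strains passed an adjusted p of 0.05 over all genes. By that rule 5 of the 9 genes were called among control mice (Serpina3n, Gfap, Vim, Osmr and Cd44), where 65.4% of all genes were, and 5 among CR mice (Serpina3n, Gfap, Osmr, Cd44 and Steap4), where 56.8% were. Without the 2 arrays highest in cerebellar genes Vim was called among CR mice as well, making 6 of 9 beside 64.1% of all genes. These counts include genes chosen for their strain levels, and the shares are near those of all genes. The median distance between highest and lowest strain mean was 0.40 for the 9 genes and 0.27 for all genes in control mice, and 0.36 and 0.24 in CR mice. Of 189 tests of a gene in a pair of strains, 50 were called in control mice and 49 in CR mice, beside 23.7% and 20.1% of all such tests.

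**Figure D3:**
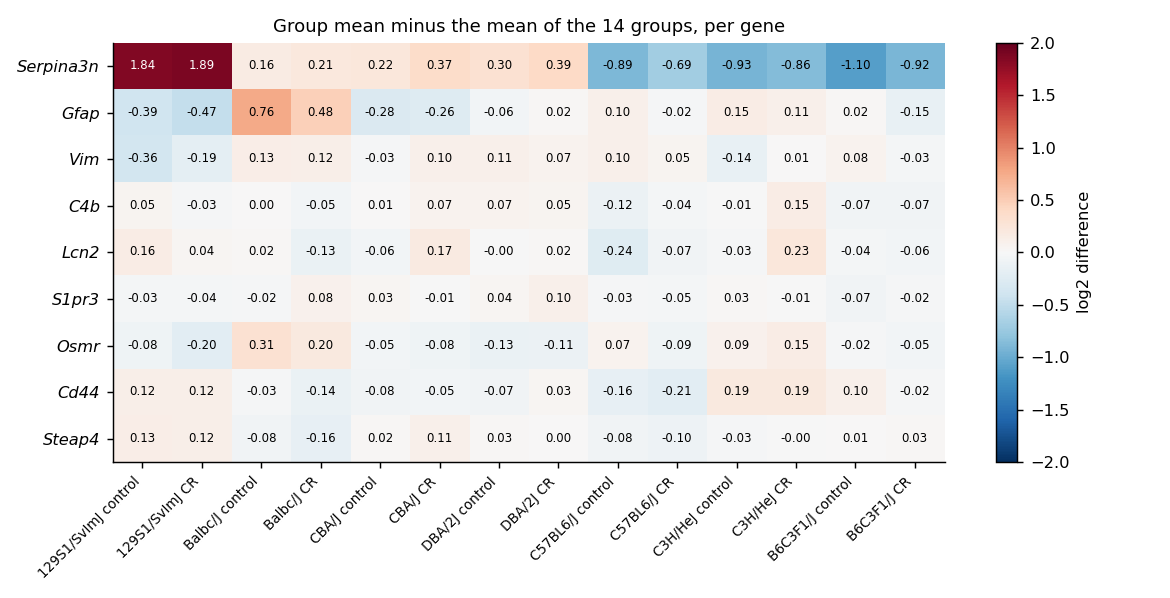
Rows are the 9 genes and columns the 14 groups of 8 mice, with each cell giving the group mean minus the mean of the 14 groups in log2 units. The 2 columns of 129S1/SvImJ are the highest for Serpina3n and the lowest for Gfap and Vim, and S1pr3 is nearly even throughout.

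The hybrid B6C3F1/J can be set against the mean of C57BL6/J and C3H/HeJ. None of the 9 genes was called in control mice (16.2% of all genes) or in CR mice (18% of all genes). At an unadjusted p of 0.05 there were 0 and 1 of 9, beside 30% and 29.5% of all genes. Serpina3n was 0.19 below the mean of the parental strains in control mice (95% interval -0.39 to 0.02, limma adjusted p = 0.22) and 0.14 below it in CR mice (-0.35 to 0.07, adjusted p = 0.38). Gfap was 0.19 below it in CR mice (-0.35 to -0.03, adjusted p = 0.0883). Without the 2 arrays highest in cerebellar genes the Serpina3n difference in control mice was -0.17 (adjusted p = 0.186).

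The second question of the design was whether CR moved these genes. Averaged over the 7 strains, none was called, beside 2.34% of all genes, of which 234 rose and 233 fell. Serpina3n was 0.11 higher in CR mice (95% interval 0.02 to 0.20, or 8.16% on the linear scale, limma adjusted p = 0.198), with a positive difference in 7 of 7 strains. The control and CR arrays overlapped in every strain. Without the 2 arrays highest in cerebellar genes, both of them control arrays with low Serpina3n, the difference was 0.08 (adjusted p = 0.289). Gfap was 0.08 lower (-0.15 to -0.01, limma adjusted p = 0.224), with a negative difference in 5 of 7 strains. Serpina3n and Gfap thus differed with opposite signs, neither past the threshold.

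Osmr was 0.05 lower in CR mice (95% interval -0.11 to 0.00, limma adjusted p = 0.329). With Serpina3n and Gfap it made 3 of 9 genes with an unadjusted p under 0.05, where 14.3% of all genes had one. The other 6 genes differed by -0.02 to 0.05, and the intervals of all 9 genes lay within -0.15 and 0.20. Lcn2 had the widest interval, from -0.05 to 0.16.

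Within single strains, 0 of 63 tests of a gene in a strain were called, beside 0.0272% of all such tests. An unadjusted p under 0.05 was reached by 2 of the 63, beside 6.76% of all such tests. The larger of these was Gfap in Balbc/J, 0.28 lower in CR mice (95% interval -0.47 to -0.10, limma adjusted p = 0.402). Here the CR arrays ended at 9.07 and 7 of the 8 control arrays lay above that. Osmr in C57BL6/J was 0.16 lower (-0.30 to -0.03, limma adjusted p = 0.368). The strain by diet interaction, which asks whether CR differences vary between strains, called none of the 9 genes, beside 0.0401% of all genes. None of the 9 had an unadjusted interaction p under 0.05, where 6.11% of all genes had one. For Serpina3n the 7 differences ranged over 0.16 (interaction adjusted p = 1) and for Gfap over 0.37 (adjusted p = 0.954).

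**Figure D4:**
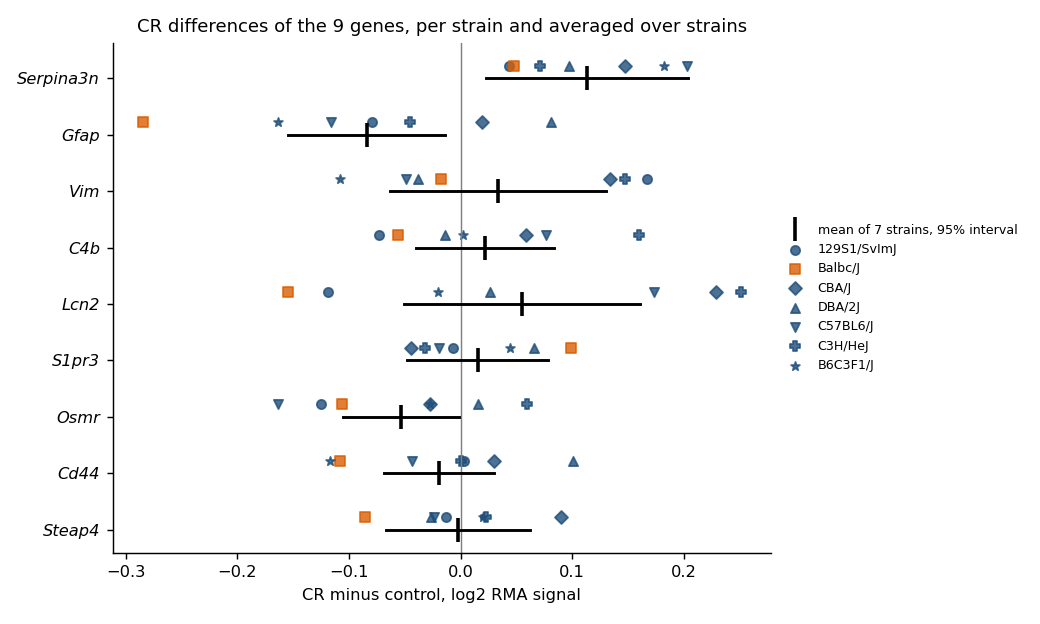
The x axis gives CR minus control in log2 RMA signal for the 9 genes, with 1 symbol per strain (Balbc/J as orange squares), a black tick at the mean of the 7 strains and a black line over its 95% interval. All 7 Serpina3n symbols lie above 0 and the Gfap symbol of Balbc/J lies farthest below 0, at -0.28.

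The other genes of the pathways around the 9 were described by counts, to be read against the 65.4% of all genes called between strains in control mice. Counts for CR are to be read against 2.34% of the 19938 genes, of which 234 rose and 233 fell. Without the 2 arrays highest in cerebellar genes 349 of all genes rose and 521 fell. Among gp130 ligands, which include Il6, Lif and Osm, 0 of 6 measured genes were called between strains in control mice. The mean signal of these ligands was low, between 5.81 and 5.96 in the 14 groups. Whether background signal hides differences among them was not tested. Among gp130 receptors 4 of 5 were called, Osmr being one, and Il6st, which encodes gp130 itself, ranged over 0.39 with 129S1/SvImJ lowest and C3H/HeJ highest. Of 9 genes of JAK and STAT3 signalling, 7 were called, and Stat3 itself ranged over 0.38, again with Balbc/J highest and 129S1/SvImJ lowest, as for Gfap. Across strains under CR, 1 of these 9 fell, Pias3, an inhibitor of STAT3, by 0.09 (limma adjusted p = 0.0404), and it lost its call without the 2 arrays highest in cerebellar genes, where 0 of 9 were called. No gp130 ligand or receptor was called for CR.

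Of 11 intermediate filament genes 8 were called between strains in control mice, Gfap and Vim among them, and 129S1/SvImJ had the lowest mean for 6 of the 11. Of 19 complement genes, C4b among them, 11 were called. The 2 with the smallest p were Cd59a, an inhibitor of the membrane attack complex, with a range of 1.62 from 129S1/SvImJ to DBA/2J, and C1qc, a chain of the first component, with a range of 1.10 and 129S1/SvImJ highest. Neither list held a gene called for CR with all arrays, and without the 2 arrays highest in cerebellar genes 1 of 19 complement genes fell, Clu, which encodes clusterin (-0.06 ± 0.02, SE, limma adjusted p = 0.0269). Of 16 genes listed as the Serpina3 family and its relatives 5 were measured, Serpina3n included, and 3 of these were called between strains. The others were Serpina3a and Serpini1, with ranges of 0.35 and 0.37 beside 2.94 for Serpina3n.

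Of 10 sphingosine phosphate genes 6 were called between strains in control mice, and S1pr1, the receptor most used by endothelium and astrocytes, rose under CR by 0.10 ± 0.02 (SE, limma adjusted p = 0.000137), while its relative S1pr3 differed by 0.02 ± 0.03. Of 10 genes around Cd44, 6 were called between strains, among them the hyaluronan synthase Has1 and the linker Rdx, and none for CR. Of 14 genes of lipocalin and iron handling 8 were called between strains, among them transferrin (Trf, range 0.69) and its receptor (Tfrc, 0.64), and none for CR.

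Genes listed beside the 9 in reactive astrocytes gave the following counts. Of 5 raised in all reactive astrocytes, 3 were called between strains in control mice, with Hspb1, a small heat shock protein, ranging over 0.93 from 129S1/SvImJ to Balbc/J, the same extremes as Gfap. Of 7 genes of the inflammatory kind 3 were called, and 1 of 7 rose under CR, Fkbp5, a glucocorticoid-induced chaperone, by 0.15 ± 0.04 (SE, limma adjusted p = 0.0164). Of 12 genes of the ischaemic kind 8 were called, with S100a10 ranging over 1.02 from 129S1/SvImJ to C57BL6/J, and 1 of 12 rose under CR, Emp1, a membrane protein, by 0.08 ± 0.02 (adjusted p = 0.0225). The median CR difference was 0.0128, 0.00915 and -0.00094 for these lists in turn, beside 0.000541 for all genes.

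Markers of cell types also moved with strain. Of 14 astrocyte markers, 13 were called between strains in control mice (92.9%, beside 65.4% of all genes). 129S1/SvImJ had the lowest mean for 8 of the 14 in each diet. The mean of the list was lowest in 129S1/SvImJ control mice, at 10.29 ± 0.03 (SD, n = 8, range 10.23 to 10.35), and highest in C57BL6/J control mice, at 10.60 ± 0.11 (range 10.51 to 10.83, the top being the array high in cerebellar genes). Balbc/J had 10.54 ± 0.04. All 9 microglial markers were called, with a list mean between 7.77 in 129S1/SvImJ CR mice and 8.10 in C3H/HeJ CR mice. Their part in the strain differences of the 9 genes was not tested.

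Under CR, 1 of 14 astrocyte markers rose and 2 fell, where 2.34% of all genes were called. Gja1, the gap junction protein, rose by 0.10 ± 0.02 (SE, limma adjusted p = 9.74e-05), and S100b (-0.13 ± 0.04, adjusted p = 0.044) and Acsbg1 (-0.08 ± 0.02, adjusted p = 0.0359) fell. Without the 2 arrays highest in cerebellar genes 2 rose and 3 fell, Gjb6 and Fgfr3 being added. More of all 19938 genes were called in that setting too, with 349 rising and 521 falling in place of 234 and 233. No microglial or oligodendrocyte marker was called for CR with all arrays, and 1 of 9 of each, Trem2 and Opalin, fell without those 2 arrays. Between strains in control mice, where 65.4% of all genes were called, 7 of 9 oligodendrocyte genes were called, 6 of 7 of endothelium, 6 of 9 of mural cells and fibroblasts, 5 of 8 of ependyma and choroid plexus, 2 of 6 of neutrophils and blood, 1 of 7 of excitatory cortical neurons and 0 of 12 of cerebellum. Without the 2 arrays highest in cerebellar genes, 71.7% of all genes were called. The counts were then 8 of 9 for oligodendrocytes, 5 of 9 for mural cells and fibroblasts and 4 of 8 for ependyma and choroid plexus. For cortical neurons and cerebellum they were 2 of 7 and 2 of 12, and without the 4 arrays 2 of 7 and 4 of 12, beside 71.5% of all genes. Under CR the endothelial receptor gene Tek (0.09, limma adjusted p = 0.0443) and the fibroblast matrix gene Lum (0.12, adjusted p = 0.0479) rose. Without the 2 arrays Lum still rose, Tek was no longer called, and the endothelial genes Pecam1 and Flt1 and the pericyte receptor gene Pdgfrb fell by 0.06 to 0.07.

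The spread between mice of one group, with strain and diet removed, was used to ask which of the 9 genes varied together. Deviations from group means were related over 112 arrays, with 100000 permutations of mice within groups and adjustment over the 8 relations of Serpina3n. Serpina3n went with C4b (r = 0.329, permutation p = 0.00084, adjusted p = 0.00672, rho = 0.362, permutation p = 0.00022), with the same sign in 7 of 7 strains, and r was 0.378 without the 2 arrays farthest from the median of Serpina3n. Those arrays were C57BL6/J control 6 and B6C3F1/J control 8. Serpina3n also went with Osmr (r = 0.324, adjusted permutation p = 0.00947, rho = 0.257) and against Cd44 (r = -0.341, adjusted permutation p = 0.00924, rho = -0.223). Both were weaker without the 2 arrays, at r = 0.153 and -0.16. Without the 4 arrays high in cerebellar genes they were 0.203 and -0.202 and no longer passed (adjusted permutation p = 0.0932 and 0.085). With Gfap there was no relation past the threshold (r = 0.0883, permutation p = 0.348, rho = 0.051).

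A further pair of relations changed with the set of arrays. Serpina3n and Vim had r = -0.276 (permutation p = 0.0649, rho = 0.188) over all arrays and 0.349 (permutation p = 0.00042, rho = 0.367) over the 108 arrays without the 4 high in cerebellar genes, and the sign turned. Serpina3n and S1pr3 had r = 0.0698 (permutation p = 0.566, rho = -0.27) and then -0.433 (permutation p = 1e-05, the smallest the permutations can give, rho = -0.431). The sign was the same in 7 of 7 strains over the 108 arrays. In 129S1/SvImJ, which held none of the 4, r was only -0.0031.

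Over all 36 pairs of the 9 genes, a set added after the values were seen, 11 passed an adjusted permutation p of 0.05 with all arrays and 11 without the 4, and 8 passed in both. Gfap and C4b had the firmest relation (r = 0.495, permutation p = 1e-05, rho = 0.483, r = 0.487 over the 108 arrays, the same sign in 7 of 7 strains). Vim went with C4b (0.287 and 0.504) and with Gfap (0.291 and 0.478), and Cd44 went with Steap4 (0.332 and 0.332). C4b went against S1pr3 (-0.327 and -0.432) and Osmr against Steap4 (-0.282 and -0.27). Vim against S1pr3, at -0.537 with all arrays, was -0.109 without the 4 and no longer passed. Lcn2 and Osmr had r = 0.257 but rho = -0.0027, and r = -0.102 without the 2 arrays farthest in Lcn2, so the value rests on single mice.

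**Figure D5:**
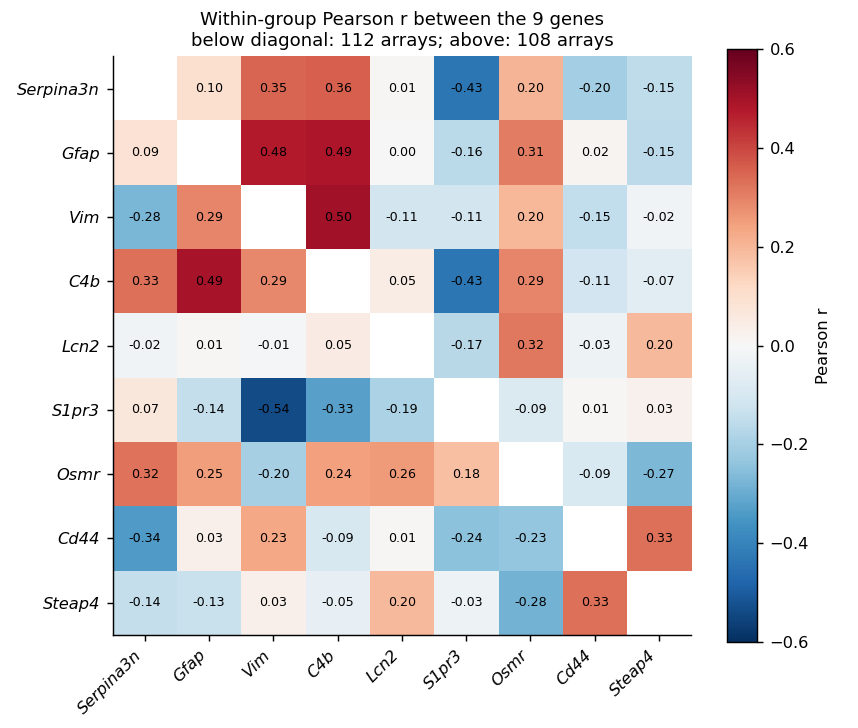
Each cell gives the Pearson r between the within-group deviations of 2 of the 9 genes, below the diagonal over 112 arrays and above it over the 108 arrays without the 4 high in cerebellar genes. Gfap, Vim and C4b are positive with one another on both sides of the diagonal, at 0.48 to 0.50 above it, and Vim with S1pr3 goes from -0.54 to -0.11.

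Within groups the markers of other cells moved with some of these genes. Values are over the 108 arrays, with those over all arrays in brackets. Gfap deviations had r = 0.5 (0.335) with the mean of the astrocyte markers. With mural cell and fibroblast genes Gfap had 0.447 (0.454) and Vim 0.689 (0.498). With oligodendrocyte genes Gfap had 0.412 (0.387). C4b had r = -0.608 (-0.256) and S1pr3 0.447 (0.702) with the genes of excitatory cortical neurons. Serpina3n had -0.369 (0.36) with them, and the sign turned with the set of arrays. With the astrocyte markers Serpina3n had 0.0466 (-0.376), where the sign turned too. Its values were 0.294 (0.605) with the microglial markers and 0.289 (0.442) with the endothelial genes. Lcn2 had 0.45 (0.461) with the neutrophil and blood genes. These values share libraries and dissection, and the part of tissue make-up in the relations between the 9 genes was not tested.

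The genes whose pattern was most like that of Serpina3n over the 14 group means were 1700048O20Rik (r = 0.955), Rnf207 (0.945), Sars2 (0.942), Pla2g3 (0.94) and Tmem208 (0.926). Their own group means spanned less, for example 7.60 to 8.75 for 1700048O20Rik and 7.43 to 7.87 for Sars2. The most like Gfap were P4htm (0.963), Uspl1 (0.96), Ralb (0.942), Hsp90aa1 (0.94) and Lpin1 (0.937). None of the 10 is one of the 9 genes or in their pathway lists, and with 7 strains many genes share an order.

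Over the within-group deviations of 112 arrays the genes most like Serpina3n were Lmo3 (r = 0.76), Pcdh17 (0.755), Alcam (0.746), Mgat4c (0.733) and Meis2 (0.731), which fell to between 0.555 and 0.623 over the 108 arrays. Those most like Gfap were Aebp1 (0.584), Aldh1a2 (0.566), Bmp6 (0.565), Ogn (0.556) and Slc6a20a (0.556), which stayed between 0.556 and 0.582. Aldh1a2, Bmp6 and Ogn are genes also used by the meninges and connective tissue. Over the 108 arrays, a set added after the values were seen, Sccpdh (0.661) led for Serpina3n and Lmo3 and Pcdh17 stayed among the first 5. For Gfap, Sash1 (0.582) and Slc14a1 (0.569) entered and Aldh1a2 and Ogn left, while Aebp1, Bmp6 and Slc6a20a stayed.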

How the data were processed

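Gene-level log2 RMA signals of 112 Affymetrix Gene 1.0 ST arrays were used as deposited by the authors, who made them with the RMA-Sketch algorithm of Expression Console. The sources used here give no versions for them. Array medians lay between 7.14 and 7.26. Of 35556 probe sets, 21789 had 1 gene symbol and 1621 several, which were left out. Each gene took its probe set of highest mean, leaving 19938 genes. The number of arrays limits the precision, and transcript amount and hybridisation to the probes cannot be told apart between strains.

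Groups came from the labels. limma 3.58.1 in R 4.3.3 fitted 1 mean to each of 14 groups of 8 mice with a shared spread per gene (lmFit and eBayes, 98 residual degrees of freedom). Moderated F tests gave strain differences in each diet and the interaction, and contrasts gave CR averaged over strains, CR within strains, the hybrid against its parental strains and 21 pairs of strains, all two-sided with Benjamini-Hochberg adjustment over all genes (and all pairs). Within-group relations were tested by 100000 permutations, two-sided. Scripts were tested on simulated data. The methods' t-test on linear signals within strains was also run.

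The members and lists were chosen with earlier results of these data known. Named genes were all 9 members, up to 4 genes of a pathway list and 3 of a cell type list (called first, then smallest p), and the 5 genes most like Serpina3n and Gfap. Alternatives were array weights, centring, quantile normalization, a filter at the median gene, probe sets on their own, robust eBayes, a covariate, replicate blocks, and leaving out strains or the arrays high in cerebellar genes. Promoter windows came from RefSeq (GRCm38.p6). Figures were drawn with matplotlib 3.10.9.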

Additional observations from a re-analysis of the deposited data

Results flagged for a closer look

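In groups of 8 mice, 126 combinations of gene and group were examined for a highest or lowest array set apart from the rest by a gap that is large against the range of its group, and 18 were found, where chance flags about 1 in 20. For Serpina3n these were low arrays, at 7.39 in C57BL6/J control 6, 7.62 in B6C3F1/J control 8, 8.03 in C3H/HeJ CR 1 and 9.41 in CBA/J CR 8. For Vim they were high arrays, at 11.63 in C57BL6/J control 6, 11.54 in B6C3F1/J control 8, 10.46 in B6C3F1/J CR 3 and 10.41 in DBA/2J CR 1. The array C57BL6/J control 6 was also apart for S1pr3 (7.23, low), Osmr (6.82, low) and Cd44 (6.92, high), and it and B6C3F1/J control 8 are the arrays with the cerebellar genes 4.40 and 4.34 above their groups. The cause was not tested.

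Lcn2 stood high in C3H/HeJ CR 4 (8.03), DBA/2J CR 6 (7.07), CBA/J CR 3 (7.05) and Balbc/J control 4 (6.68), and C3H/HeJ CR 4 was high in Osmr too (7.86). DBA/2J CR 1 stood high in C4b (8.00), and in that array Serpina3n was 0.437 and Gfap 0.524 above the other 7. S1pr3 was high in C57BL6/J CR 5 (8.26).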

How the results depend on the processing

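Over 438 comparisons of a result with an alternative, 423 kept their direction and their side of the threshold, or their count within 1.5 times. The signs that turned belonged to CR differences near 0. For S1pr3 these were -0.0024 with array weights, -0.011 without the 2 arrays highest in cerebellar genes, -0.017 without the 4, and -0.0055 with a covariate for each array's relative log expression spread. For Steap4 they were 0.012 leaving out Balbc/J, 0.0013 leaving out C57BL6/J and 0.0017 leaving out DBA/2J, and for C4b -0.00098 leaving out C3H/HeJ. With array weights 2 genes were called for CR across strains in place of 0, Vim (0.10, adjusted p = 0.0387) and Osmr (-0.07, adjusted p = 0.0481). The Serpina3n CR difference ran from 0.08 to 0.13 (adjusted p from 0.106 to 0.454) over 18 alternatives and that of Gfap from -0.11 to -0.05 (adjusted p from 0.0565 to 0.671). Vim differences among CR mice were called without the 2 arrays (adjusted p = 0.0067), without the 4 and with array weights, and those of Steap4 were lost under quantile normalization (adjusted p = 0.125). The strain range of Serpina3n in control mice stayed between 2.84 and 2.96. The cause was not tested.

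The labels do not say whether the replicate number links mice, and the main fit treated them as unpaired. Of 56 same-numbered pairs, 31 correlated above 0.1, with values from -0.481 to 0.373, and 12 correlated best with their own number. By strain the mean r of same-numbered pairs ran from -0.0656 in Balbc/J to 0.164 in CBA/J. For other numbers it was 0.00835 and -0.0232 in these strains. A link by replicate number was not tested. With the replicate number as a block, the CR difference of Serpina3n was 0.11 (adjusted p = 0.191 over all arrays, 0.197 within strains), 5 and 5 genes were called between strains and 0 for CR, and none of those calls changed, while 53 and 52 gene and pair tests were called in place of 50 and 49. By the methods' t-test 1 of 63 tests (1.59%) passed the threshold of 0.01, beside 1.74% of all such tests. It was Gfap in Balbc/J (CR over control 0.816), and 0 of 63 passed after Benjamini-Hochberg adjustment.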
